A study of Mus musculus with 21 samples.

Results

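The Hedgehog pathway was followed in 9 genes of the GFP+ keratinocyte profiles: Shh, Hhip, Ptch1, Boc, Smo, Sufu, Gli1, Gli2 and Gli3. They were picked by name for their place in the pathway, with earlier results of these data known, and all 9 were found by gene symbol among the 22050 entries. Expression was measured by mRNA-seq in keratinocytes sorted from the dorsal skin of male mice on a mixed FVB, C57Bl and 129sv background. Doxycycline was given from 3 weeks of age for 6 months, after which 4 samples came from mice with K5-rtTA, tet-GFP and tet-p16 (p16) and 4 from mice with K5-rtTA and tet-GFP alone (control). Both groups therefore carried K5-rtTA and tet-GFP and received doxycycline, and only the p16 group carried the human p16 transgene. The keratin 5 promoter drives rtTA in basal epidermal and hair follicle keratinocytes alike, so that the GFP+ gate can hold cells of both compartments. Live cells positive for CD140a, CD45 or CD31 were gated out, and each sample held about 80000 cells from 3 pooled mice. The remaining 13 samples of the series, from a further profiling, were not analysed here.

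Hedgehog ligands bind Patched receptors, which otherwise hold the membrane protein Smoothened inactive, and freed Smoothened releases the Gli transcription factors from their inhibitor Sufu at the primary cilium. Gli1 and Ptch1 are themselves transcribed in response to the signal and are widely used as its readout. In skin, the pathway is known for driving hair follicle growth and, when mutated, basal cell carcinoma.

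The deposited values, called normalized read counts here, are reads scaled by the size factor of their sample. A single read was worth between 0.742 and 1.53 of these units, and the samples held between 1760953 (control replicate 4) and 3414362 reads (control replicate 1) on genes. The human CDKN2A transgene stood at 0.7 to 2.5 in the controls and at 7.4 to 16 in 3 p16 libraries. The library labelled p16 replicate 1 had 1.6, from 2 reads, inside the control range. Fold changes of Scube2, Evc2 and Gli2, and some counts of calls, are also given without it. For replicate 3 of both groups the labels name an Illumina RNA sequencing protocol and for the other samples CEL-Seq, and the samples came from separate experiments that the labels do not assign. The keratinocyte label was borne out by Krt5, at 9046 or more in every sample, while the gated markers were near 0, with Pdgfra at most 3.5, Ptprc at most 1.6 and Pecam1 at most 6.4. The fibroblast marker Lum was at 0 throughout, while others of that list went both ways. Dcn, a proteoglycan that binds collagen, had 2.6 to 10.7 in control and 36.2 to 203 in p16 cells, and the collagen gene Col1a2 had 4.2 to 17.8 in control and 1.6 to 3.3 in p16 cells (limma adjusted p = 0.0571).

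Before the values, 2 promoters are shown, that of Ptch1 because it is a readout of the pathway and that of Gli2 because it had the lowest p of the members. Each is the 250 bases upstream of the start in RefSeq (GRCm38.p6), 5′ to 3′ on the gene's strand, with every CG dinucleotide in capitals. Neither window overlaps an exon of GENCODE M21. The Ptch1 window lies on the minus strand at chr13:63565736-63565985, inside the gene's annotated span, and has 41 CG. The Gli2 window lies on the minus strand at chr1:119053620-119053869, directly before the annotated gene, and has 22 CG, where the median over all 32851 promoter windows was 6.
Ptch1: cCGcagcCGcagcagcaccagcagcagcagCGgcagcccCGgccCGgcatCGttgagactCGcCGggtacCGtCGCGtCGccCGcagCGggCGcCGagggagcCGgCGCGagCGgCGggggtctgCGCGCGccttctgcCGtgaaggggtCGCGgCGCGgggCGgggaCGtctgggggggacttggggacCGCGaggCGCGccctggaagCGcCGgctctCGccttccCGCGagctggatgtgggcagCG
Gli2: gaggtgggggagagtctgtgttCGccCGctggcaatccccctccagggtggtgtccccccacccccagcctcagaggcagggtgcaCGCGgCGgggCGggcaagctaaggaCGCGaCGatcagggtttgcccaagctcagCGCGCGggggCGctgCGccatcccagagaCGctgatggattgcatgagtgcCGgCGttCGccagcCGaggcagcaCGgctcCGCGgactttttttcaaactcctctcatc
Of the 9 genes, 6 had a promoter in the reference (Ptch1, Smo, Sufu, Gli2, Gli3 and Hhip). On either strand, from 250 bases upstream to 50 downstream of the start, none of these 6 held the Gli binding motif GACCACCCA, which 0.253% of all windows hold, nor its core CCACCCA, which lies within it and which 9.3% hold. None held the Tcf/Lef motif CTTTGAT either, against 3.73% of all windows. The target gene Mycn, which encodes a Myc-family transcription factor, held the core on the opposite strand, 27 bases after its start (chr12:12941794-12941820, minus strand, core in capitals).
Mycn: ctggacgcgcTGGGTGGatgcgggggg

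Across the pathway, no member passed the test between p16 and control cells, with fold changes close to 1 for Smo, Sufu and Gli3 and wide intervals for Gli1 and Gli2. The comparison used limma on log2(normalized value + 1) for 12782 genes whose mean was 1 or more, and a gene was called at a Benjamini-Hochberg adjusted p under 0.05. Of the 9 members, 7 passed this filter, 0 were called higher (1.24% of all tested genes were) and 0 were called lower (2.61% of all). At an unadjusted p under 0.05, 1 of the 7 was higher (7.02% of all) and 0 were lower (8.93% of all). The groups overlapped at each of the 7, whereas they did not overlap at 9.83% of all tested genes. The median log2 fold change of the 7 was 0.25, against -0.00 over all tested genes. The 0 calls held in 140 fits of the 7 genes over 20 other settings. These included edgeR on the recovered reads, which called 1.5% of its tested genes higher and 2.79% lower, and DESeq2, which called 1.48% higher and 2.79% lower. A p that misses the threshold does not show equal expression, and the interval of each difference is given with the gene. Because the samples are bulk RNA, fewer cells expressing a gene and less RNA per cell cannot be told apart. The added 1 draws log2 fold changes of low genes toward 0. Even so, Gli1 had a larger one on this scale (0.53) than in edgeR (0.30) or DESeq2 (0.21).

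**Figure D1:**
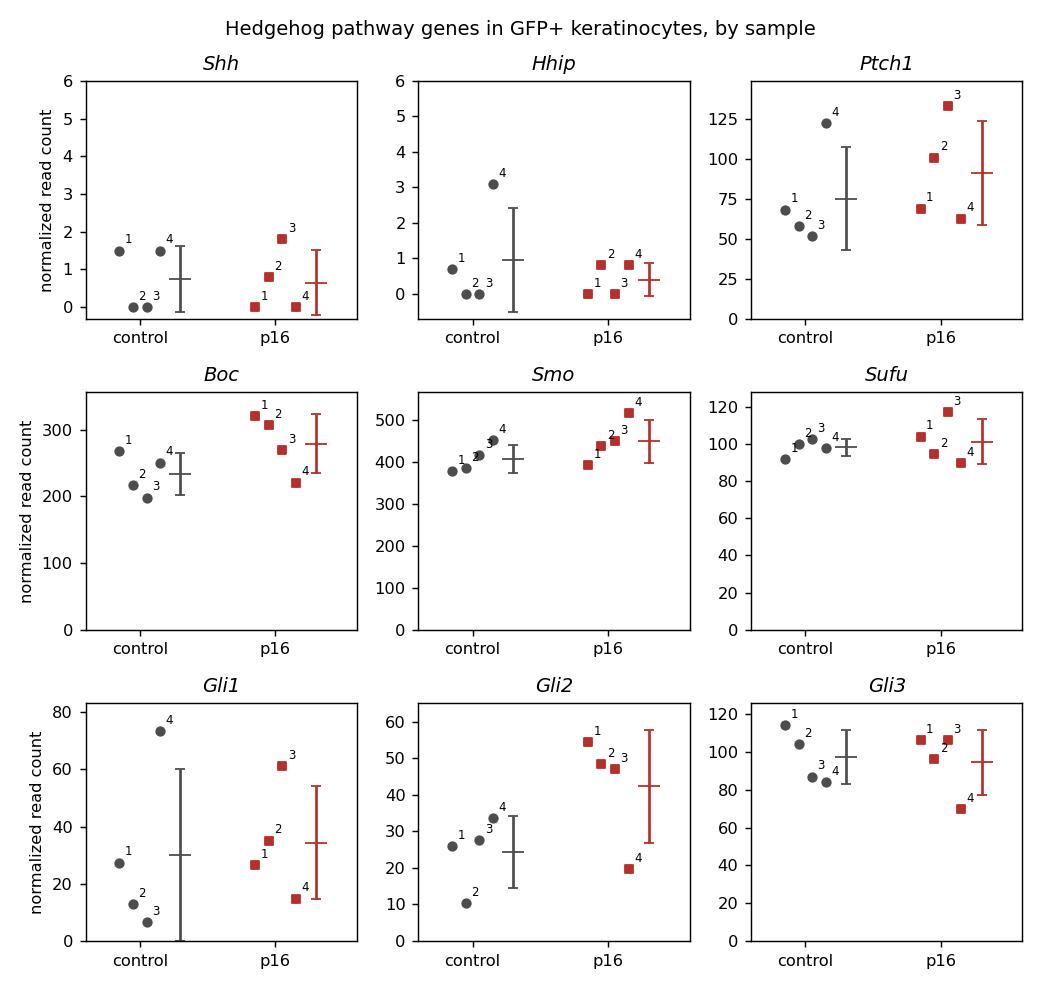
Normalized read counts of the 9 Hedgehog pathway genes in each control (grey circles) and p16 sample (red squares), numbered by replicate, with the mean and SD of each group (n = 4) beside the points. In every panel the groups overlap, with Gli2 at 19.7 to 54.4 in p16 and 10.3 to 33.6 in control cells.

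The ligand of the hair follicle, Sonic hedgehog, was at the limit of detection. Shh (chromosome 5, 28456815 to 28467256, minus strand, GRCm38) had normalized read counts of 1.5, 0, 0 and 1.5 across control replicates 1 to 4, against 0, 0.8, 1.8 and 0 across p16 replicates 1 to 4. No sample had more than 2 reads of it, so that a difference was not detectable at this depth. The other ligands, Ihh and Dhh, were equally low, with no sample above 0.9 for Ihh and 2.3 for Dhh. The limit of detection was set at 3 reads per sample, which is worth 2.23 to 4.58 normalized counts depending on the sample and covers counting error only.

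Among the genes that prepare and release ligands, only Scube2 was called. Scube2 (chromosome 7, 109798676 to 109865679, minus strand) encodes a secreted protein that helps lipid-bearing Hedgehog leave the producing cell. Its normalized read counts were 94.2, 115.5, 86.0 and 64.2 in control cells and 252.7, 320.1, 217.2 and 103.6 in p16 cells. All p16 samples but replicate 4, which lay below control replicate 2, were above every control. This gave a log2 fold change of 1.22 (95% interval 0.64 to 1.81, limma adjusted p = 0.0217). It was 1.12 (adjusted p = 0.0801) when the library labelled p16 replicate 1 was left out, and 1.19 (adjusted p = 0.121) when both replicates 3 were left out. Hhat, the acyltransferase that adds palmitate to the ligands, and Disp1, which exports them, were not called (log2 fold changes 0.33 and 0.57). Scube1 and Scube3 were at the limit of detection.

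The receptor Ptch1 (chromosome 13, 63508328 to 63573598, minus strand) varied more within the groups than between them. Its normalized read counts were 68.2, 57.8, 51.8 and 122.2 in control cells and 68.8, 100.7, 133.0 and 62.5 in p16 cells. Control replicate 4 and p16 replicates 2 and 3 stood high, and the other 5 samples lay between 51.8 and 68.8. Between the groups the log2 fold change was 0.30 (95% interval -0.28 to 0.87, limma adjusted p = 0.665). It was -0.05 when both replicates 3 were left out, and 0.56 without control replicate 4.

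The co-receptor Boc and the decoy receptor Hhip were the other members among the listed receptor genes that bind ligand. Boc (chromosome 16, 44485049 to 44558897, minus strand), which binds ligand together with Ptch1, had 267.8, 216.9, 197.9 and 250.6 in control cells. In p16 cells it had 319.8, 306.1, 269.5 and 220.4, so that 3 of 4 p16 samples were above every control. Boc had a log2 fold change of 0.25 (95% interval -0.03 to 0.54, limma adjusted p = 0.387). Hhip (chromosome 8, 79965851 to 80058006, minus strand), which sequesters ligand and is a target of the pathway, had 0.7, 0, 0 and 3.1 in control cells and 0, 0.8, 0 and 0.8 in p16 cells. It had at most 2 reads in any sample, and a difference was not detectable at this depth. The other co-receptors, Cdon and Gas1, had log2 fold changes of 0.22 (adjusted p = 0.766) and -0.21 (adjusted p = 0.406) in limma, and Lrp2 had no reads.

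Smo (chromosome 6, 29735503 to 29761365, plus strand), which carries the signal across the membrane, was among the steadiest members. Its normalized read counts were 376.9, 385.0, 415.9 and 450.7 in control cells and 391.8, 436.4, 448.7 and 516.3 in p16 cells. Only p16 replicate 4 exceeded every control. The log2 fold change was 0.14 (95% interval -0.09 to 0.36, limma adjusted p = 0.596), which bounds a rise of Smo at 1.28-fold.

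Sufu (chromosome 19, 46396896 to 46488804, plus strand), the inhibitor that holds Gli proteins in the cytoplasm, had 92.0, 100.1, 102.7 and 97.8 in control cells and 103.9, 94.5, 117.0 and 89.6 in p16 cells. P16 samples lay on both sides of the controls, with 2 above all of them and 1 below. Sufu had a log2 fold change of 0.04 (95% interval -0.23 to 0.31, limma adjusted p = 0.926). Its sign turned without p16 replicate 3, when it was -0.03.

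Of the other 38 ligand, receptor and transducer genes listed, 32 were tested, 2 were called higher and 0 lower (1.24% and 2.61% of all tested genes), and their median log2 fold change was 0.06. Beside Scube2, the call was Evc2 (chromosome 5, 37338499 to 37425055, plus strand), whose protein at the base of the cilium passes the signal on from Smoothened. Evc2 had normalized read counts of 41.5, 39.8, 45.1 and 39.7 in control cells and 66.4, 69.5, 58.5 and 64.1 in p16 cells. Every p16 sample was above every control, and the log2 fold change was 0.63 (95% interval 0.31 to 0.94, limma adjusted p = 0.0269). The call of Evc2 was lost when the library labelled p16 replicate 1 was left out (0.61, adjusted p = 0.0926) and in DESeq2 (adjusted p = 0.0509). Its partner Evc had a log2 fold change of 0.35 (adjusted p = 0.391). At an unadjusted p under 0.05, Efcab7, an anchor of the Evc complex, and the arrestin gene Arrb1 were lower, with log2 fold changes of -0.73 (limma adjusted p = 0.159) and -0.44 (limma adjusted p = 0.292).

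**Figure D2:**
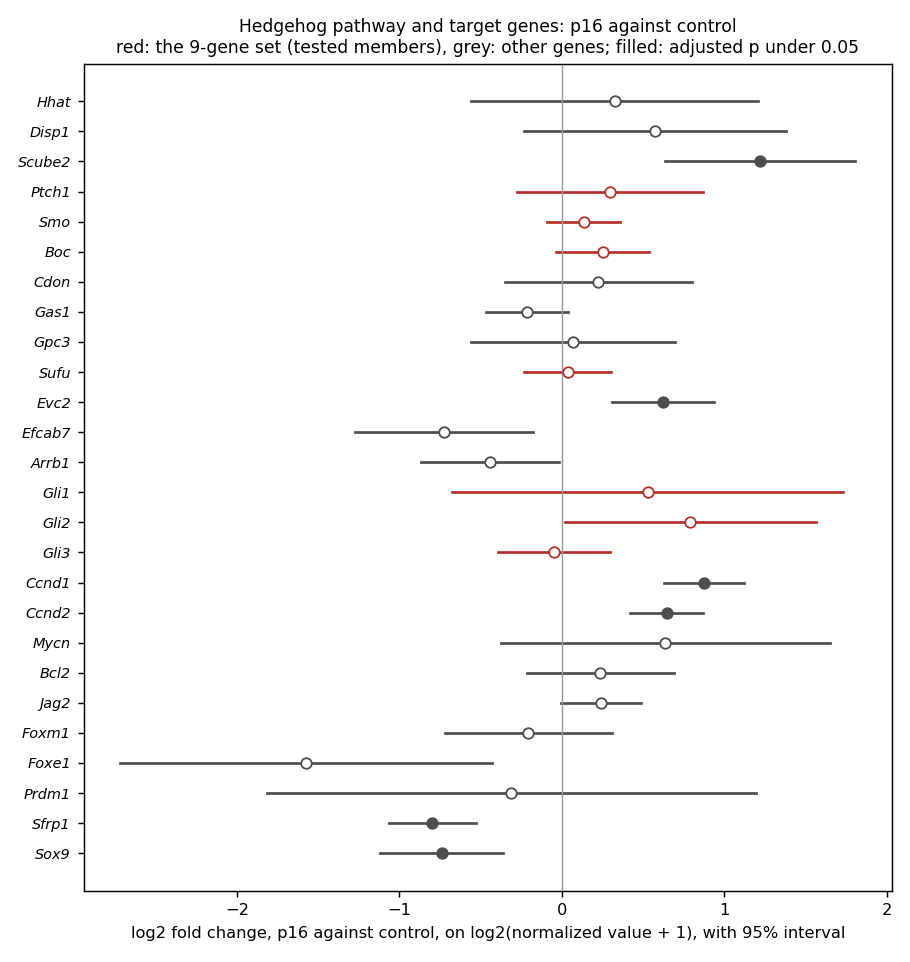
Log2 fold changes of p16 against control cells with 95% intervals, for the 7 tested members (red) and for other pathway and target genes (grey), with filled points at an adjusted p under 0.05. No member is filled, and the interval of Gli1 spans -0.68 to 1.73 while that of Smo spans -0.09 to 0.36.

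The Gli factors differed from each other in how far they varied. Gli3 (chromosome 13, 15463235 to 15730026, plus strand), which acts mainly as a repressor, had 114.2, 104.0, 86.9 and 84.0 in control cells and 106.3, 96.0, 106.4 and 69.9 in p16 cells. Only p16 replicate 4 fell outside the control range, below it. The log2 fold change of Gli3 was -0.05 (95% interval -0.39 to 0.30, limma adjusted p = 0.930).

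Gli2 (chromosome 1, 118834132 to 119053619, minus strand), the main activator of the family, had 26.0, 10.3, 27.6 and 33.6 in control cells. In p16 cells it had 54.4, 48.4, 47.0 and 19.7, so that replicates 1 to 3 exceeded every control while replicate 4 lay within their range. The log2 fold change of Gli2 was 0.79 (95% interval 0.02 to 1.57, limma p = 0.0449, adjusted p = 0.296), and the exact permutation p, two-sided on the normalized counts, was 0.114, where the smallest possible is 0.0286. The difference was 0.64 without the library labelled p16 replicate 1, 0.44 without control replicate 2 and 1.12 without p16 replicate 4, and no adjusted p over the 20 other settings fell below 0.0578.

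Gli1 (chromosome 10, 127329882 to 127341974, minus strand), the Gli gene that is switched on by the pathway, varied most. Its normalized read counts were 27.4, 12.8, 6.7 and 73.3 in control cells and 26.4, 35.1, 61.2 and 14.8 in p16 cells. Control replicate 4 was the highest of all 8 samples and control replicate 3 the lowest, a 10.9-fold range, and all p16 samples lay between them. Control replicate 4 rested on 48 reads and control replicate 3 on 8, and their 95% exact Poisson intervals were 54.1 to 97.2 and 2.88 to 13.2 normalized counts. These intervals cover counting error only, and the 2 samples were picked as the extremes. Smo ranged only 1.20-fold over the same control samples. The log2 fold change of Gli1 was 0.53 (95% interval -0.68 to 1.73, limma adjusted p = 0.726), and it was 0.30 in edgeR and 0.21 in DESeq2. Leaving out both replicates 3 turned it to -0.30, and without control replicate 4 it was 1.12. Exons of Gli1 overlap Arhgap9 and Gm47200 on the opposite strand, and whether counting used the strand is not given in the sources used here. Arhgap9 itself had at most 2.3 in any sample.

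**Figure D3:**
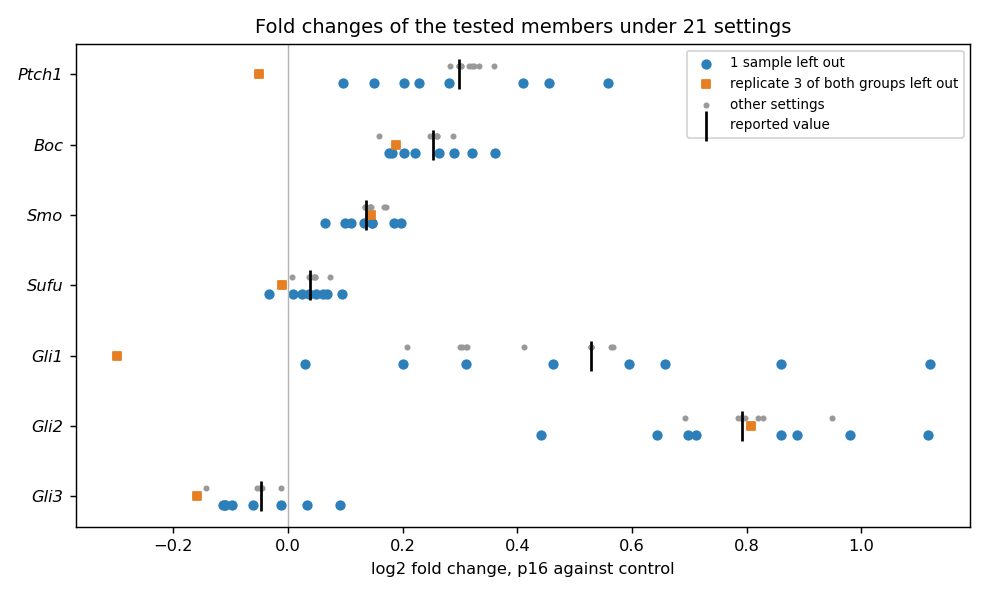
Log2 fold changes of the 7 tested members with each of the 8 samples left out in turn (blue), with both replicates 3 left out (orange) and under the other settings (grey), beside the reported value (black bar). Gli1 spreads from -0.30 to 1.12, while Smo stays between 0.07 and 0.20.

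Gli1 and Ptch1 rose and fell together from sample to sample. Across the 8 samples their log2 values had a Pearson r of 0.940 (exact permutation p = 0.000496, adjusted p = 0.0104 over 21 pairs of members) and a Spearman rho of 0.952 (exact permutation p = 0.00114, adjusted p = 0.0240). Without the 2 samples farthest from the median on the Ptch1 axis, p16 replicate 3 and control replicate 4, r was 0.869. After each group's mean was removed r was 0.937, and without both replicates 3 it was 0.936. No other pair of members passed the adjustment by either measure. The next by Pearson r, Smo and Gli3 at -0.832, had an adjusted exact permutation p of 0.117 and fell to -0.442 without the 2 farthest samples, while r was -0.894 after each group's mean was removed and -0.979 without both replicates 3. Gli2 and Boc had an r of 0.754 with an adjusted exact permutation p of 0.203, and an r of 0.645 after each group's mean was removed and 0.916 without both replicates 3.

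The order of the samples, noticed after the values were seen, gives the same picture and is a description without a test. In control cells Gli1, Ptch1 and the anti-apoptotic target Bcl2 each ran from replicate 4, the highest, through 1 and 2 to 3. In p16 cells each ran from replicate 3 through 2 and 1 to 4. The order was taken from Gli1 itself. Of the 12782 tested genes, 31 (0.243%) had this order in both groups, with Gli1, Ptch1 and Bcl2 among them. Of the 13 tested targets, Gli1 and Ptch1 included, 4 had it, so most targets did not. Of all 100 tested pathway, target and cilium genes, 4 had it. The target Mycn did not, running from replicate 4 through 1 and 3 to 2 in control cells. Bcl2 had 122.4, 105.2, 72.7 and 128.3 in control cells and 135.1, 139.8, 155.2 and 79.8 in p16 cells (log2 fold change 0.24, limma adjusted p = 0.659). The top sample of this order was the shallowest library of its group in both cases, control replicate 4 with 1760953 and p16 replicate 3 with 2884544 reads, while control replicate 1, next in its group, was the deepest. The part of depth in the order was not tested.

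Of 12 marker lists for cell types of the skin, 1 had the same order in both groups when its normalized counts were summed, that of fibroblasts. The sums of the 7 fibroblast markers were 117.1, 99.0, 70.9 and 142.1 in control cells and 128.0, 152.3, 282.8 and 72.4 in p16 cells. Without Dcn they were 111.2, 96.4, 66.7 and 131.4 in control cells and 42.4, 62.5, 79.8 and 36.2 in p16 cells, and the order was kept. Most of that remainder was the matrix gene Fbln1, at 60.1 to 116 in control and 29.6 to 62.1 in p16 cells, one of 2 list members called (lower), while Dcn was called higher. Col3a1 had at most 4.6, Pdgfra at most 3.5, and Lum no reads. The sum over 6 markers of the upper follicle (Lrig1, Plet1, Krt79, Krt17, Lgr6 and Gata6) was also highest in control replicate 4 among controls (17567) and in p16 replicate 3 among p16 samples (13674). The same 2 samples were highest for 5 of the 12 lists, those of fibroblasts, the upper follicle, the hair matrix, basal interfollicular keratinocytes and Merkel cells. Some of these leads were small. The Merkel sums were 7.7 against 7.4 in control replicate 1, and 8.1 against 8.0 in p16 replicate 1, near the limit of detection. The basal sum of p16 replicate 3 was 28934 against 28841 in p16 replicate 4. The part of any of these cells in the values of Gli1 and Ptch1 was not tested.

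**Figure D4:**
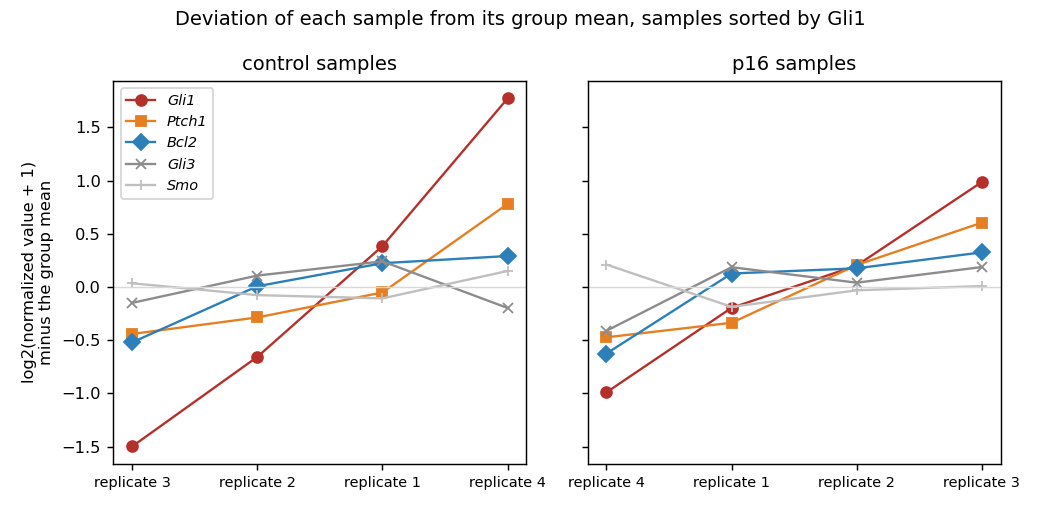
Log2(normalized value + 1) of each sample minus its group mean for Gli1, Ptch1 and Bcl2, with Gli3 and Smo in grey, and samples sorted by Gli1. The 3 coloured lines rise from left to right in both groups, whereas Gli3 and Smo do not follow them.

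When each gene was centred on its control mean and compared by the mean absolute log2 difference over the 8 samples, among 10431 genes with a mean of at least 10, the gene nearest to Gli1 was Mycn (0.37), followed by the chemokine gene Ccl1 (0.45) and the proton pump subunit gene Atp6v1b1 (0.48). Ptch1 ranked 8 from Gli1, but Gli1 ranked 8428 from Ptch1 and 3685 from Gli2. Gli1 was taken for this comparison after its values were seen. Mycn had normalized read counts of 31.2, 14.1, 17.5 and 70.3 in control cells and 48.0, 58.6, 72.7 and 16.4 in p16 cells. Its log2 fold change was 0.64 (95% interval -0.38 to 1.65, limma adjusted p = 0.579).

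The genes listed as Hedgehog targets did not move one way. Of 15 targets other than the members, 11 were tested, with 2 called higher and 2 lower (1.24% and 2.61% of all tested genes) and a median log2 fold change of 0.24. The G1 cyclins Ccnd1 and Ccnd2 were higher. Ccnd1 had 905.8, 678.9, 612.2 and 715.0 in control cells and 1211, 1315, 1425 and 1358 in p16 cells (log2 fold change 0.88, limma adjusted p = 0.000452). The log2 difference of Ccnd2 was 0.65 (limma adjusted p = 0.00284). At both cyclins every p16 sample was above every control. The Wnt antagonist gene Sfrp1 was lower, with 661.7, 577.5, 599.7 and 780.7 in control cells and 431.8, 380.2, 299.7 and 397.1 in p16 cells (log2 fold change -0.80, limma adjusted p = 0.00241). The hair follicle stem cell factor Sox9 was lower (log2 fold change -0.74, limma adjusted p = 0.0297), and its call was lost in 6 of 20 other settings. Foxf1, Nkx2-1 and Nkx2-2 had no reads, and Snai1 was at the limit of detection.

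Sox9 is also among 12 markers of the hair follicle bulge, 9 of which were called lower in p16 cells (2.61% of all tested genes were). Postn was the 1 bulge marker with a log2 fold change above 0 (0.73, limma adjusted p = 0.272). It had 165 to 380.6 in control and 202.3 to 680.1 in p16 cells. The summed bulge markers ranged from 12257 to 16376 normalized counts in control and from 9336 to 9420 in p16 cells. Most of that sum was Krt15, at 8443 to 13136 in control and 6607 to 7834 in p16 cells. The call of Krt15 (limma adjusted p = 0.0463) held in 3 of 8 fits with 1 sample left out. Those of Fgf18 and Sox9 held in 4 of 8 each, and those of Cd34, Lhx2, Tcf7l1, Nfatc1, Tbx1 and Angptl7 in all 8. Of 6 tested sebaceous markers, 4 were called lower as well (2.61% of all tested genes were). The sebaceous sums were 1163 to 1386 in control against 356 to 568 in p16 cells. Markers of basal interfollicular keratinocytes were not called (0 of 6). None of these 3 marker sums had the sample order of Gli1 in both groups, and their part in the values of the Hedgehog genes was not tested.

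The primary cilium, where Smoothened meets the Gli factors, showed no called gene. Of 52 listed cilium genes, 51 were tested and 0 were called higher or lower, where 1.24% and 2.61% of all tested genes were. The median log2 fold change of the 51 was 0.10. At an unadjusted p, 2 were higher (Ift140 and Tctn3) and 4 lower (Wdr35, Kif3a, Kif3b and Intu), 6 of 51 in all, where 15.9% of all tested genes passed. The furthest from 0 were Intu, which acts in cilium assembly, at -0.77 (limma adjusted p = 0.251), and Wdr35, a part of the intraflagellar transport machinery, at -0.68 (limma adjusted p = 0.104).

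**Figure D5:**
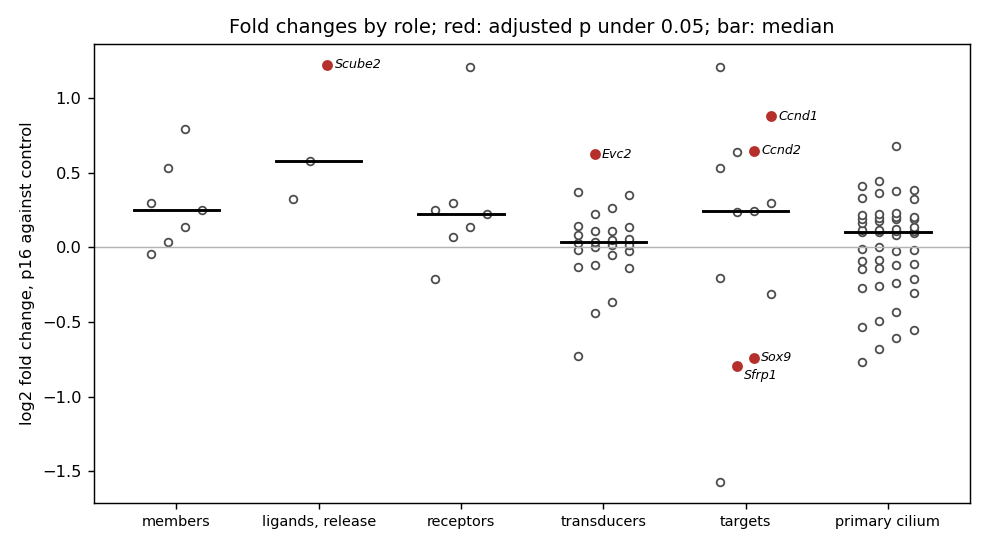
Log2 fold changes of p16 against control cells for every tested gene of each list, with red points at an adjusted p under 0.05 and bars at the medians. The members lie around 0.25, the 51 cilium genes around 0.10, and the called genes are Scube2, Evc2, Ccnd1, Ccnd2, Sfrp1 and Sox9.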

How the data were processed

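The study's methods describe 3′ libraries by a version of CEL-Seq2, while the labels of both replicates 3 name an Illumina RNA sequencing protocol. The authors trimmed reads with Cutadapt and used Tophat2 to align them to GRCm38. The submitters' processing notes also name HTSeq and DESeq2. The deposited signal is the reads of a gene over the size factor of the sample, rounded to 1 decimal. The authors also deposited group means, a test score and p-values of their own comparison, which were not used. Low values are whole multiples of the value of 1 read, and dividing by it gave whole reads for 99.97% or more of the values in each sample (tolerance 0.051 normalized counts). Whether duplicate reads were collapsed is not given in the sources used here.

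Groups were taken from the labels. The comparison used R 4.3.3 and limma 3.58.1 (trended eBayes, pseudocount 1, genes with a mean of 1 or more, no replicate term) with Benjamini-Hochberg adjustment. Alternatives were other pseudocounts and filters, a replicate block, each sample or both replicates 3 left out, total count scaling, thinning to the smallest library, and edgeR 4.0.16 and DESeq2 1.42.0 on the recovered reads. Each sample is a pool of 3 mice, and p-values measure the spread between these pools. Permutation tests were exact and two-sided.

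The members and gene lists were chosen with earlier results of these data known. Named were all members, and other listed genes called or with an unadjusted p under 0.05; Mycn, Bcl2 and the listed genes given without a call were named after their values were seen. Some listed genes are not reported here. Gene coordinates come from GENCODE M21 (GRCm38).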

Additional observations from a re-analysis of the deposited data

Results flagged for a closer look

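Among 52 groups of 4 values examined, for the members and the other genes compared across settings, 1 held a sample far from the rest by Dixon's criterion, where chance gives about 1 in 20. Foxe1, a transcription factor gene listed as a target, had a normalized read count of 4.7 in p16 replicate 2, from 6 reads, and of 0.8 to 0.9 in the other p16 samples, from 1 read each. Its control values were 3.0, 6.4, 4.2 and 16.8.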

How the results depend on the processing

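No tested member passed an adjusted p of 0.05 under any of the 20 other settings, but the sign of some differences depended on which libraries were kept. When both replicates 3 were left out, the log2 fold changes turned to -0.051 for Ptch1, -0.011 for Sufu, -0.30 for Gli1 and -0.043 for Bcl2. Those of Ptch1, Gli1 and Bcl2 stayed above 0 with any 1 sample left out, at lowest 0.096, 0.029 and 0.065. With a sample left out, Sufu ranged from -0.033 (without p16 replicate 3) to 0.094, and Gli3 from -0.11 to 0.090 (without p16 replicate 4), and was 0.033 without control replicate 1. At an unadjusted p, 1 member was higher, and 2 other ligand, receptor and transducer genes were lower, 2 cilium genes higher and 4 lower, and 897 of all genes higher and 1141 lower. The 2 higher calls among other ligand, receptor and transducer genes ranged from 0 to 3 with a sample left out (3 without p16 replicate 4, and 0 without control replicate 1, control replicate 4, the library labelled p16 replicate 1 or p16 replicate 2). They came to 0 without both replicates 3, and to 1 with DESeq2 and 1 with thinned libraries. The 2 lower calls among other targets were 1 to 2 with a sample left out (1 without control replicates 1, 3 or 4 or the library labelled p16 replicate 1), 1 without both replicates 3 and 1 with total count scaling. Over all genes, 159 higher and 334 lower calls became 69 to 196 and 177 to 343 with a sample left out, lowest without the library labelled p16 replicate 1 and without control replicate 1, and 66 and 157 without both replicates 3. Deviations from the group means correlated at 0.004 to 0.083 between same-numbered samples and at -0.0997 to 0.058 between differently numbered ones, so the ranges overlapped. Replicate 3 of both groups also shares its protocol label. A fit with a replicate block called 216 genes higher and 392 lower and changed no call of a member. The calls of Evc2, Scube2 and Sox9 were lost in 8, 7 and 6 of 20 settings, and those of Ccnd1, Ccnd2 and Sfrp1 in none. The causes of these shifts were not tested. Depth limits Shh and Hhip, with at most 2 reads in a sample, under a limit of 3 or of 5 reads.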
